A study of Mus musculus with 3 samples.

Results

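Gata6, Gata4, Sox17, Sox7, Foxa2, Eomes, Mixl1, Gsc, Pdgfra and Dab2 are genes of the endoderm and mesendoderm lineages, chosen here by symbol as 10 of the 52636 genes in the count tables. They were measured by Smart-SCRB, a plate-based assay in which mRNA of single sorted cells receives a barcode for the well and a unique molecular identifier (UMI) for the molecule, and counts are of distinct molecules. All cells were JM8.N4 mouse embryonic stem (ES) cells, a C57BL/6N line, in which the cohesin subunit RAD21 carries an auxin-inducible degron, through which added auxin leads to loss of the protein. They grew without feeders in serum with leukemia inhibitory factor and the 2i inhibitors PD0325901 and CHIR99021. Control cells were left without auxin, and the others received 500 µM of the auxin indole-3-acetic acid for 6 h. The experiment was carried out 3 times with both conditions, and each plate held 1 condition.

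ES cells correspond to the pluripotent epiblast of the early embryo. Primitive endoderm, the sister lineage of the epiblast, expresses the transcription factors GATA6, GATA4, SOX17 and SOX7, the receptor PDGFRA and the endocytic adaptor DAB2, with GATA6 acting early and SOX7 late. Mesendoderm arises from the epiblast at the primitive streak under Nodal and Wnt signals, where EOMES, MIXL1 and GSC are early transcription factors and FOXA2 marks the definitive endoderm that follows. In culture, ES cells are known to express such genes at low and uneven levels, so the questions put to the data were how many cells held each gene, whether several of them marked the same cells, and whether auxin altered their number in each replicate.

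Of 1335 cells with more than 2600 detected genes, 1167 lay on plates whose condition was settled: 168, 371 and 85 control cells and 169, 290 and 84 auxin-treated cells, by replicate. On 2 plates of replicate 3, the deposited annotation and the study's source values name opposite conditions, and their 168 cells entered only where stated. Median UMI counts per cell were 104442.5, 143842 and 72317 for control and 113617, 187088 and 75376.5 for auxin, so auxin-treated cells were the deeper set each time. Doublets were not called, since single cells had been sorted into wells. Plates of a barcode set shared its 96 well barcodes, and 288 distinct barcodes served all 1536 wells. Pluripotency transcripts were present, less evenly in replicate 2. The median of 15 pluripotency genes was in 91.7%, 46.4% and 89.4% of control cells and 91.1%, 24.1% and 81.0% of auxin-treated cells of replicates 1, 2 and 3, and 1 of the 15 (Sox2) was listed at 0 in replicates 2 and 3. Nanog ranged from 38.9 to 563.1 and Klf2 from 95.5 to 494.9, and Dppa5a, a gene of naive ES cells, ranged from 2118 to 7998 CPM (UMIs of the gene per 1000000 gene UMIs) over the 6 sets of replicate and condition. The degron removes protein, so Rad21 mRNA is no check of the labels.

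The table of replicate 1 differed from the tables of replicates 2 and 3 in ways that no source used here describes. Sox2, a core pluripotency gene, had UMIs in 84.6% of cells in replicate 1 and was listed at 0 in every cell of replicates 2 and 3, while Sox2ot, the long transcript that spans it, stood at 1.05, 15.6 and 15.6 CPM in replicates 1, 2 and 3. Pou5f1 stood at 249.7, 7.09 and 11.7 CPM and Fgfr2 at 0.564, 133.1 and 125.9 CPM. Over 136 genes the CPM was above 20 in replicate 1 and under 0.5 in both other replicates, and 69 genes showed the opposite pattern. The median log2 ratio of (CPM + 1) of replicate 3 over replicate 1 went from 0.06 in the bin of the shortest gene bodies to 1.10 in that of the longest, whereas that of replicate 3 over replicate 2 lay between -0.03 and 0.04 in all 6 bins. Levels of the lineage genes are therefore compared between conditions within a replicate, and differences between replicate 1 and the others are given as values only.

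**Figure D1:**
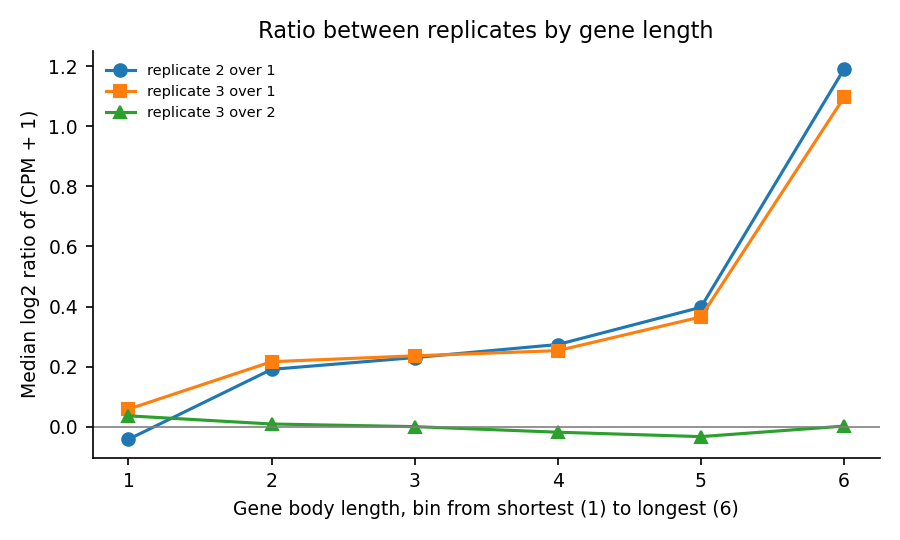
Median log2 ratio of (CPM + 1) between replicates (vertical axis) in 6 bins of gene body length from shortest to longest (horizontal axis), over 10755 genes with a mean of at least 5 CPM. Both lines against replicate 1 climb with length, to 1.19 for replicate 2 and 1.10 for replicate 3, and the line of replicate 3 over replicate 2 stays near 0.

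Eomes and Gsc were detected in more cells of replicate 1 than the other 8 genes, and the 250 bases before their RefSeq start sites are shown so that the regulatory sequence stands beside the counts. Eomes starts on the forward strand (GRCm38.p6, chr9:118477939-118478188) and Gsc on the reverse strand (chr12:104473237-104473486, printed as transcribed). Capitals mark 3 promoter motifs, searched as exact strings on both strands. CCAAT was found in 33.8% of the 32851 upstream windows of the reference table, TATAAA in 12.4% and GGGCGG in 32.7%.
Eomes: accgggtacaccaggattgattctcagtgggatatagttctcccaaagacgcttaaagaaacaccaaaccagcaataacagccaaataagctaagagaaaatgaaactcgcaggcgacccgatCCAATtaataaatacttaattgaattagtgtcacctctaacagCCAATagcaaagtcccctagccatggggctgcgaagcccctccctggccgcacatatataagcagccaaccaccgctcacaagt
Gsc: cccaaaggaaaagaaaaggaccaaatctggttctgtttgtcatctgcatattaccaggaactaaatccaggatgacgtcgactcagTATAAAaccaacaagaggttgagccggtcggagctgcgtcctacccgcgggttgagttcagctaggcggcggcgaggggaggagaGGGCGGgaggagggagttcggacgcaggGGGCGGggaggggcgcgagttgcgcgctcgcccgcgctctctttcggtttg
The Eomes window holds CCAAT at 2 places and neither other exact string, at a GC content of 46.4%. Near matches to a motif, such as tatataag in this window, were not counted. In the Gsc window TATAAA occurs at 1 place and GGGCGG at 2, at a GC content of 59.2%. The GENCODE start of Gsc, at 104473330, lies inside this window, so in that annotation both GGGCGG matches are within the gene body. These matches describe letters only, and no measurement of the series bears on the factors that bind them.

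Of 652 cells with a lineage transcript, 424 held a single one of the 10 genes. At least 1 UMI of at least 1 of the 10 genes was present in 57.3% of cells in replicate 1, 54.2% in replicate 2 and 59.8% in replicate 3. Genes of unrelated adult tissues give a scale for such shares: the median over 15 of them was between 0% and 1.38% of cells across the 6 sets, although the keratin gene Krt10 reached 36.9% and the T cell gene Cd3e 34.1%. The corresponding median over the 10 lineage genes lay between 3.10% and 7.06%. The highest lineage gene of a set reached 26.8% to 33.7%, in each set under the highest unrelated gene (29.0% to 36.9%), so a share alone is not read as expression, and free RNA was not measured apart. Intervals given below are 95% exact binomial intervals and cover counting error only.

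**Figure D2:**
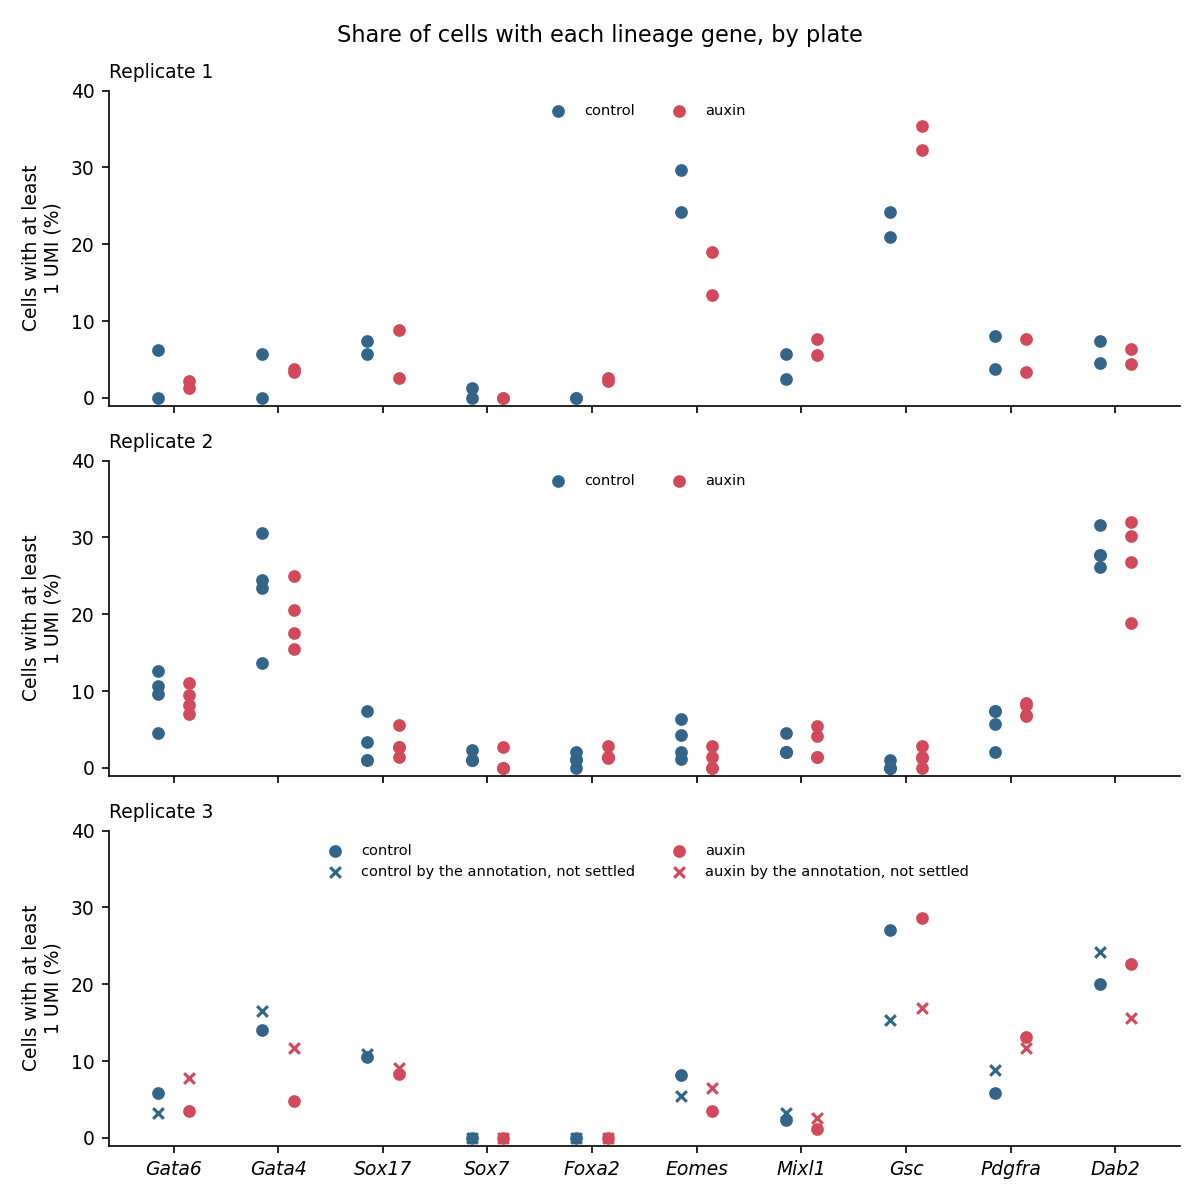
Percent of cells with at least 1 UMI of each lineage gene (vertical axis), 1 point per plate, in replicates 1, 2 and 3 from top to bottom, with control in blue and auxin in red. Crosses are the plates of replicate 3 whose condition was not settled. Eomes and Gsc lead in replicate 1, Gata4 and Dab2 in replicate 2, and Gsc and Dab2 in replicate 3.

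GATA6 (ENSMUSG00000005836, chr18:11052064-11085635, forward strand) starts the primitive endoderm program. Gata6 UMIs were present in 2.98% of control and 1.78% of auxin-treated cells in replicate 1, in 9.43% and 8.97% in replicate 2, and in 5.88% and 3.57% in replicate 3. Its level was 1.22 against 0.676 CPM in replicate 1, 0.979 against 0.515 in replicate 2, and 0.989 against 0.598 in replicate 3. The auxin value was the lower of each pair, on both scales, but single plates decided this. In replicate 1 all 22 control UMIs came from control plate 2, and control plate 1 was at 0 against 0.676 CPM with auxin. On the unsettled plates of replicate 3, Gata6 was in 3.30% of cells on the plate annotated as control and 7.79% on that annotated as auxin, and with these plates placed by the annotation the pair of replicate 3 was 0.661 and 0.775 CPM, the opposite order. Most of these cells held a trace: in replicate 2, 55 of 61 Gata6-positive cells had a single UMI and the highest count was 4, whereas 4 of the 8 positive cells of replicate 1 had at least 5.

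GATA4 (ENSMUSG00000021944, chr14:63198922-63271692, reverse strand) acts with GATA6 in primitive endoderm. In replicate 2, 23.2% of control cells (interval 19.0% to 27.8%) and 19.7% of auxin-treated cells (15.2% to 24.7%) held Gata4, at 3.36 and 1.82 CPM. Replicate 3 had 14.1% (7.51% to 23.4%) and 4.76% (1.31% to 11.7%), at 2.14 and 0.748 CPM. Its unsettled plates had 16.5% (annotated as control) and 11.7% (annotated as auxin). With the source values deciding these plates, replicate 3 had 13.0% in control and 10.9% with auxin, at 2.44 and 1.90 CPM, a smaller gap in the same order. Replicate 1 had 2.98% and 3.55%, at 0.333 and 0.312 CPM, or 12 UMIs in all, and all 6 control UMIs lay on control plate 1, without which the CPM order turned, while the share order turned without control plate 2. The 4 control plates of replicate 2 ran from 13.6% to 30.5% and the 4 auxin plates from 15.5% to 25.0%, so plates of the conditions overlapped. Gata4 has introns of 68867 bases in a body of 72771 bases, and its lower share in replicate 1 goes with the length trend between the tables. In its length bin the median log2 ratio of replicate 2 over replicate 1 was 0.40. Gata4 stood at 0.322 and 2.58 CPM in replicates 1 and 2, and Pdgfra, a gene of the same bin, at 1.53 and 1.48. The part of length in the Gata4 difference was not tested.

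SOX17 (ENSMUSG00000025902, chr1:4490931-4497354, reverse strand), a factor of primitive and definitive endoderm, was found in few cells, which held more UMIs on average with auxin. It was detected in 6.55%, 3.23% and 10.6% of control cells of the 3 replicates in turn, and in 5.92%, 3.10% and 8.33% of auxin-treated cells. Its level ran the other way, at 2.00 against 4.94 CPM in replicate 1, 0.510 against 1.23 in replicate 2, and 4.12 against 8.82 in replicate 3. A Sox17-positive cell held on average 3.27, 2.08 and 2.78 UMIs in control and 9.50, 6.89 and 8.43 in auxin-treated cells of replicates 1, 2 and 3. The richest auxin-treated cells held 38, 24 and 25 UMIs, and the richest control cells 8, 7 and 6. Without the richest cell of each set, the level was still higher with auxin, at 2.99 against 1.56, 0.756 against 0.368 and 5.12 against 3.17 CPM. Plates of the conditions overlapped, with 8.25 and 1.21 CPM on the auxin plates and 2.38 and 1.66 CPM on the control plates of replicate 1. In replicate 2 auxin plate 4 held 45 of the 62 auxin UMIs. The order turned without auxin plate 1 of replicate 1 (1.21 with auxin against 2.00 in control) and without auxin plate 4 of replicate 2 (0.461 against 0.510).

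SOX7 and FOXA2 were near the limit of the assay. Sox7 (ENSMUSG00000063060, chr14:63943673-63950732, forward strand), a close relative of Sox17, gave 2 UMIs in replicate 1, 7 in replicate 2 and 0 in replicate 3, where 0 of 84 auxin-treated cells allows a share of up to 3.57% of cells with a UMI (3 counts of the total). Foxa2 (ENSMUSG00000037025, chr2:148042877-148046969, reverse strand) gave 5 UMIs in 4 auxin-treated cells and none in control cells of replicate 1, 7 control and 12 auxin UMIs in replicate 2, and none in replicate 3. A difference between conditions was not detectable at this depth for either gene.

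EOMES (ENSMUSG00000032446, chr9:118478212-118486132, forward strand), a T-box factor of mesendoderm and trophoblast, was found in fewer auxin-treated than control cells in each replicate. In replicate 1, 26.8% of control cells (20.3% to 34.2%) and 16.0% of auxin-treated cells (10.8% to 22.4%) held it, at 19.0 and 8.22 CPM. Replicate 2 had 3.50% (1.88% to 5.92%) and 1.03% (0.214% to 2.99%), at 1.73 and 0.0595 CPM, and replicate 3 had 8.24% (3.38% to 16.2%) and 3.57% (0.743% to 10.1%), at 3.96 and 2.09 CPM. The plates of replicate 1 did not overlap, with 24.1% and 29.6% in control and 13.3% and 19.0% with auxin. In replicate 2 the control plates ran from 1.14% to 6.32% and the auxin plates from 0% to 2.82%, and the 3 positive auxin-treated cells held 1 UMI each against up to 14 in control cells. On the unsettled plates of replicate 3 the order was the reverse of that on the settled plates, with 5.49% on the plate annotated as control and 6.49% on the plate annotated as auxin, and placing them by the source values gave replicate 3 shares of 7.41% in control and 4.57% with auxin but levels of 3.01 and 3.37 CPM, so the CPM order turned while the share order did not. The 3′ end of Eomes lies under Gm33460, a gene on the other strand (whether counting used strand is not stated), which stood at 0.0805, 0.694 and 0.627 CPM in replicates 1, 2 and 3 while Eomes stood at 13.4, 0.884 and 2.98. Whether the counting of replicates 2 and 3 placed Eomes molecules elsewhere was not tested, and within a replicate both conditions come from 1 table.

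GSC (ENSMUSG00000021095, chr12:104471209-104473330, reverse strand), the homeodomain factor of the organizer and anterior mesendoderm, was the most frequent of the 10 in replicate 1. Gsc was present in 22.6% of control cells (16.5% to 29.7%) and 33.7% of auxin-treated cells (26.6% to 41.4%), at 11.8 and 18.4 CPM. Its plates did not overlap in replicate 1 either, with 21.0% and 24.1% in control and 32.2% and 35.4% with auxin, the opposite order to Eomes. Replicate 3 showed no such gap, with 27.1% and 28.6% of cells and 14.7 and 11.7 CPM, and with the source values deciding its plates the shares were 22.2% and 21.7%. Replicate 2 nearly lacked the gene, with 1 UMI in 371 control cells and 17 UMIs in 4 of 290 auxin-treated cells.

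Gsc stood at 15.2, 0.181 and 13.1 CPM in replicates 1, 2 and 3. By the thresholds used above, 4 genes were above 20 CPM in both replicates 1 and 3 and under 0.5 in replicate 2, and 6 genes showed the opposite pattern. Among genes looked up after values were seen, Cdx1 and Sp5, targets of Wnt signaling, stood at 366.0, 0.583 and 127.1 and at 16.4, 0.181 and 23.1 CPM, and the naive pluripotency genes Tfcp2l1, Prdm14 and Klf4 at 243.6, 3.30 and 315.3, at 83.5, 3.65 and 91.6 and at 101.4, 1.95 and 49.0 CPM. Otx2, a factor of the primed epiblast, and Lefty1 went the other way, at 12.3, 144.3 and 3.06 and at 155.2, 406.0 and 29.3 CPM. Replicates 2 and 3 did not differ in the length pattern, and the cause of their difference in these genes was not tested.

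MIXL1 (ENSMUSG00000026497, chr1:180693043-180697034, reverse strand), a homeodomain factor of the primitive streak, was in 4.17% of control and 6.51% of auxin-treated cells of replicate 1, in 2.70% and 3.10% of replicate 2, and in 2.35% and 1.19% of replicate 3. Levels were 1.05 and 2.60, 0.795 and 0.595, and 1.32 and 1.05 CPM. The direction differed between replicates on both scales.

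PDGFRA (ENSMUSG00000029231, chr5:75152292-75198215, forward strand), the receptor tyrosine kinase of primitive endoderm and mesoderm, had, like Sox17, the higher level with auxin in each replicate, at 1.44 against 1.61, 0.775 against 2.16 and 1.15 against 5.68 CPM for control against auxin. Its locus overlaps Gm42802, Gm42803 and Mir7025, with which molecules may be shared. The share of cells was 5.95% against 5.33% in replicate 1, 5.66% against 7.59% in replicate 2, and 5.88% against 13.1% in replicate 3. Positive cells held on average 2.60, 1.81 and 1.40 UMIs in control and 3.44, 4.95 and 3.45 with auxin. In replicates 2 and 3 together, 13 auxin-treated and 2 control cells had at least 5 UMIs, and in replicate 1 there were 2 of each. The order of the levels in replicate 1 turned without its auxin plate 1 (1.436 with auxin against 1.443 in control) and without its control plate 2 (1.61 against 2.62). With the source values deciding the plates of replicate 3, its pair was 3.34 in control and 3.37 CPM with auxin.

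DAB2 (ENSMUSG00000022150, chr15:6299788-6440712, forward strand), the endocytic adaptor of the extraembryonic endoderm, was the most often detected of the 10 in replicate 2. Dab2 was in 28.3% of control cells (23.8% to 33.2%) and 26.9% of auxin-treated cells (21.9% to 32.4%) there, in 20.0% and 22.6% of replicate 3, and in 5.95% and 5.33% of replicate 1. Its CPM was lower with auxin in each replicate as the plates were settled, at 3.22 and 2.34, 6.34 and 4.56, and 10.2 and 8.97 in control and auxin-treated cells, and 1 control cell with 61 UMIs held 19.6% of the control molecules of replicate 2. Without auxin plate 1 of replicate 1 the pair was 3.22 and 3.98 CPM, and with the source values deciding the plates of replicate 3 it was 7.17 and 9.70 CPM, both in the opposite order. Its body of 140925 bases is the longest of the 10, so the lower share in replicate 1 again goes with the length trend, whose part was not tested.

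**Figure D3:**
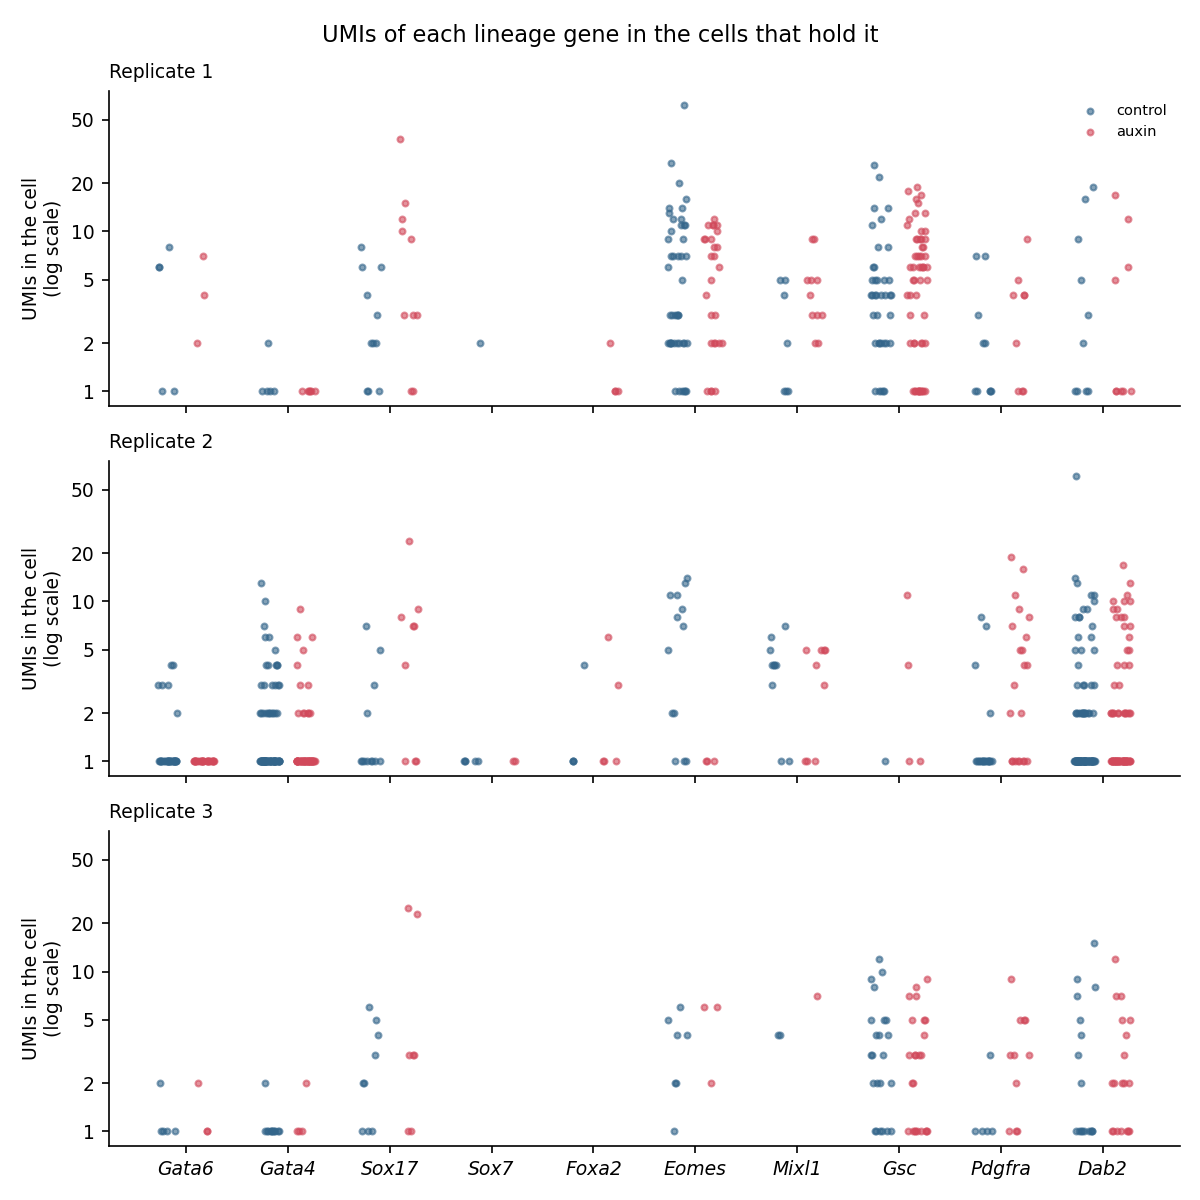
UMIs of each lineage gene (vertical axis, log scale) in every cell with at least 1 UMI, in replicates 1, 2 and 3 from top to bottom, with control in blue and auxin in red and sideways scatter for display only. Gata6 and Gata4 points of replicate 2 crowd at 1 UMI, while Sox17 and Eomes reach 38 and 62 UMIs in single cells of replicate 1.

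Whether auxin altered the number of cells with a lineage gene was tested over the 3 replicates. The share of cells was lower with auxin in all 3 replicates for Gata6, Sox17 and Eomes and higher in all 3 for Gsc. Across all 17514 genes that passed the low count filter the corresponding shares were 9.93% lower and 17.5% higher. The mean difference, auxin minus control, was -5.98 ± 4.32 percentage points for Eomes and 4.58 ± 5.66 for Gsc (SD, n = 3 replicates), and -1.33 ± 0.928 for Gata6 and -1.01 ± 1.11 for Sox17. Single replicates moved these means: Eomes was at -3.57 without replicate 1, Gsc at 1.31 without replicate 1, and Gata6 and Sox17 at -0.835 and -0.381 without replicate 3. Flipping the sign of each replicate in all ways (exact permutation, two-sided) gave p = 0.25 for each of these 4 genes, the least that 3 replicates allow, and 0.625 after Benjamini-Hochberg adjustment over the 10 genes. The other 6 genes gave p between 0.5 and 1. Of these 4 genes, Eomes alone kept its direction in all replicates under every setting run on cells and plates. Gata6 lost it at 2 UMIs and with the plates of replicate 3 as annotated (mean -0.208 points), Sox17 lost it at 40000, 20000 and 2 UMIs and with the stricter filter of 4000 genes, and Gsc lost it at 20000 and 2 UMIs and with the source values. Leaving out 1 plate of replicate 1 or 2 also cost Gata6 (3 plates) and Sox17 (5 plates) their single direction, and never Eomes or Gsc. The Gsc difference rests on replicate 1, where it was 11.1 points, against 1.11 and 1.51 points in replicates 2 and 3.

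**Figure D4:**
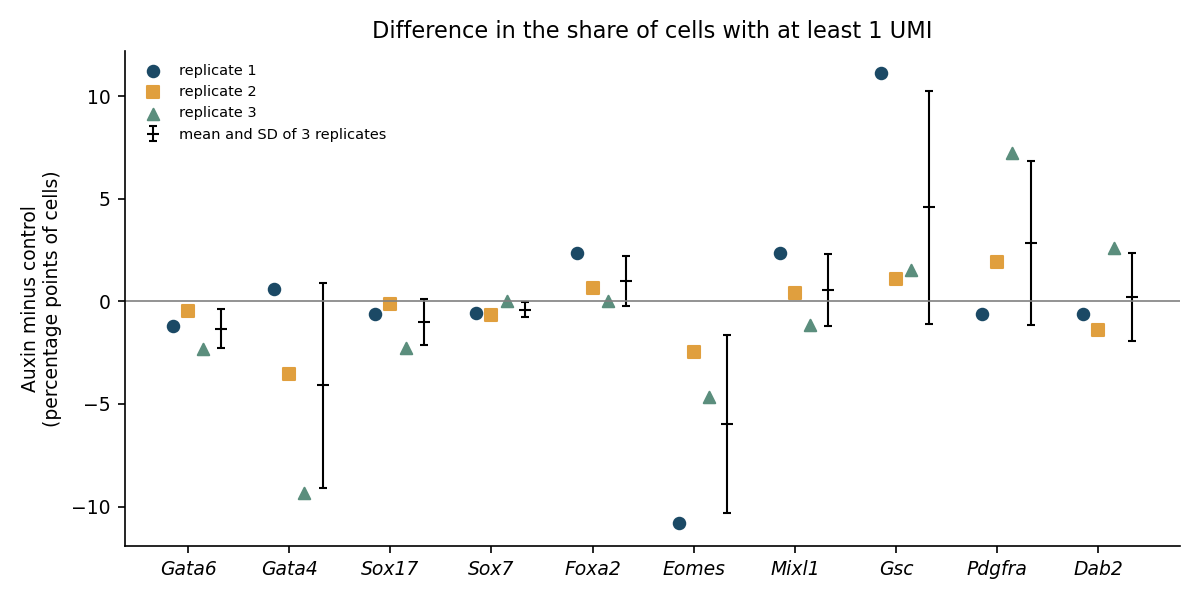
Auxin minus control difference in the percent of cells with at least 1 UMI (vertical axis, percentage points) for each lineage gene, with 1 marker per replicate and the mean and SD of the 3 replicates in black. Eomes lies under 0 in all 3 replicates, from -10.8 to -2.47 points, and Gsc above 0, from 1.11 to 11.1 points.

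Summed counts went into the quasi-likelihood test of edgeR, and a gene was called at an adjusted p (Benjamini-Hochberg, over all genes tested) under 0.05. Of the 10 genes, 8 passed the low count filter (Sox7 and Foxa2 did not), and 0 of the 8 were called, where 0% of all 17514 genes were called (33 had p under 0.05 before adjustment) and the count by DESeq2 was 0 (66 before adjustment). With the replicate as a block, 0 of the 8 were again called against 0.0171% of all genes, and Eomes and Sox17 were under 0.05 before adjustment. For Eomes the blocked log2 fold change was -1.94 (SE 0.61, adjusted p = 0.74), against -1.28 (SE 1.64, adjusted p = 1) without the block. DESeq2 with the block called 56 of all 17514 genes and 0 of the 8, with Eomes at -2.065 (SE 0.596, DESeq2 adjusted p = 0.0795). By edgeR, Sox17 had 1.21 (SE 0.38, adjusted p = 0.74) with the block, and Pdgfra 1.25 (SE 0.56, adjusted p = 0.85). When the filter was dropped as well, a setting chosen after seeing the data, 156 of 38861 genes were called and Eomes was among them (log2 fold change -1.92, edgeR adjusted p = 0.0012). Its blocked estimate was -2.62 without replicate 1, -1.12 without replicate 2 and -2.34 without replicate 3. When the source values decided the plates of replicate 3, it was -1.49 for Eomes and 0.54 for Pdgfra (edgeR adjusted p = 0.99 for both). Without replicate 3, Pdgfra stood at 0.81.

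In direction, 6 of the 8 tested genes had 1 sign of the CPM difference in all 3 replicates, with 3 to 6 genes when 1 plate of replicate 1 or 2 was left out (3 without auxin plate 1 of replicate 1), 5 with the plates of replicate 3 as annotated and 4 by the source values. Gata6, Gata4, Eomes and Dab2 were lower with auxin each time, where 13.7% of all tested genes were, and Sox17 and Pdgfra were higher each time, where 15.6% of all tested genes were. The median log2 fold change over the 8 genes was -0.03 without and -0.09 with the block, and that over all genes was -0.001 and 0.003.

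Cells with several lineage genes were about as many as independent detection would give. For each plate, the number of cells with each gene was fixed, the chance of a gene in a cell was made to grow with the UMI count of the cell, and the genes were drawn independently. On this basis 45.4 cells with at least 3 of the 10 genes were expected and 41 were observed, a ratio of 0.903. Replicate 1 had 9 such cells and 11.8 expected, replicate 2 had 22 and 24.6, and replicate 3 had 10 and 9.002. Cells with at least 2 genes numbered 228 against 221.8 expected. The ratio is a description without a test, and it depends on the construction: it was 1.21 when the UMI count was ignored, and 1.41 (11 cells against 7.80) when a gene had to have 2 UMIs to count. Cells with at least 3 genes were deeper, with median UMI counts of 140535, 192889 and 93024 in replicates 1, 2 and 3 against 107086, 151217 and 70255 in cells with none or 1.

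**Figure D5:**
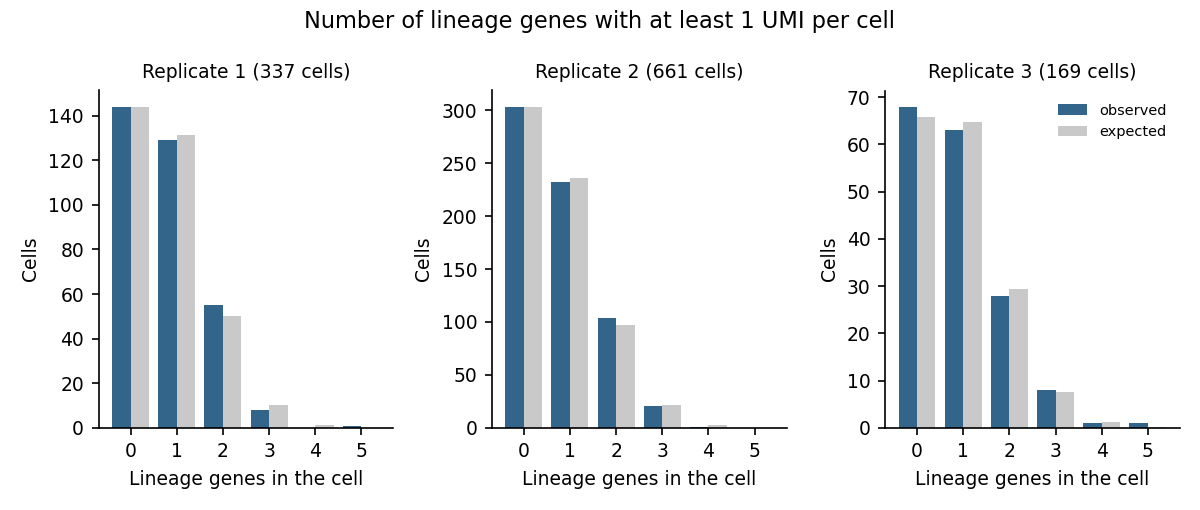
Number of cells (vertical axis) by the number of lineage genes with at least 1 UMI in the cell (horizontal axis), observed in blue and expected from independent draws in grey, for replicates 1, 2 and 3. The pairs of bars nearly coincide in each panel, as with 303 cells observed and 303.6 expected with no lineage gene in replicate 2.

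The share of cells with at least 3 lineage genes was higher with auxin in replicates 1 and 2 and nearly equal in replicate 3, within the counting intervals. It was 1.79% in control (3 of 168 cells, interval 0.370% to 5.13%) and 3.55% with auxin (6 of 169, 1.31% to 7.57%) in replicate 1, 2.96% (11 of 371, 1.49% to 5.24%) and 3.79% (11 of 290, 1.91% to 6.69%) in replicate 2, and 5.88% (5 of 85, 1.94% to 13.2%) and 5.95% (5 of 84, 1.96% to 13.3%) in replicate 3. The mean difference was 0.888 ± 0.849 percentage points (SD, n = 3; p = 0.25 by the same exact permutation, two-sided, the least possible, so the test could not pass 0.05). After thinning to 40000 UMIs per cell the differences were 0.789, -0.232 and 0.819 points, and replicate 2 no longer had the sign of the others. At 20000 UMIs they were 0.478, -0.293 and 0.232 points. Observed over expected cells were 0.518, 0.759 and 1.01 in control and 1.00, 1.09 and 1.24 with auxin, higher with auxin in each replicate, on 3 to 11 observed cells per value. With 2 UMIs required the order in replicate 3 turned, with 2 cells observed in each condition and 0.754 (control) and 1.24 (auxin) expected.

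Summed over all 45 pairs, 330 co-detections were observed and 331.9 expected, 21 pairs exceeded their expectation, and 7 were seen in no cell. The pairs found together most often over all replicates were Gata4 with Dab2 in 53 cells (52.7 expected; 49 of them in replicate 2 and 0 in replicate 1), Eomes with Gsc in 22 (24.2; 19 of them in replicate 1), Pdgfra with Dab2 in 22 (19.5), Gata6 with Gata4 in 22 (18.1), and Gsc with Dab2 in 20 (18.5). Eomes and Gsc shared 8 control cells where 13.2 were expected and 14 auxin-treated cells where 11.1 were expected. Only 2 pairs lie on the same chromosome. Gata4 and Sox7, 671980 bases apart on chromosome 14, shared 2 control cells (1.28 expected) and 0 auxin-treated cells (0.431 expected), and Sox17 and Mixl1, 176195688 bases apart on chromosome 1, shared 3 (1.12 expected) and 0 (1.09 expected). These numbers are too small to compare the conditions.

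The cells with the most lineage genes combined both groups. A cell of an auxin plate of replicate 1, with 140535 UMIs in all, held 38 Sox17, 13 Gsc, 7 Gata6, 6 Dab2 and 1 Foxa2 molecules. Another, the deepest cell on the settled auxin plate of replicate 3 (171798 UMIs against a median of 75376.5), held 8 Gsc and 5 Pdgfra molecules and 1 each of Gata6, Gata4 and Dab2. Both remaining cells with 4 genes were control cells, in which Dab2 was joined by Gata4, Mixl1 and Pdgfra in replicate 2 and by Eomes, Sox17 and Gata6 in replicate 3. Among the 41 cells with at least 3 genes, 28 held Dab2, 20 Gata4, 17 Pdgfra and 16 Gsc, with 17 of the Dab2 and 15 of the Gata4 cells in replicate 2. In replicate 1, 9 of its 9 such cells held Gsc, 5 Eomes, 4 Mixl1, 3 Dab2 and 1 Gata4.

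Other genes of the same programs were not jointly higher in these cells. The sums of 9, 22 and 10 cells with at least 3 of the 10 genes were set against 273, 535 and 131 cells with none or 1, and a fit was not run because the sum of replicate 1 held under 10 cells. Of 20 further primitive and extraembryonic endoderm genes with enough counts, 2 (Runx1 and Fgfr2) were higher in all 3 replicates and 2 (Lama1 and Apoe) lower, where 9.63% and 17.3% of all genes were. None of 11 further mesendoderm genes was higher in all 3, and Mesp2, Nodal and Chrd were lower. Of 14 pluripotency genes, Nanog was higher and Esrrb and Klf2 were lower.

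Further genes of these lineages, listed apart from the 10, were measured at a wide range of levels. Over the 6 sets of replicate and condition, the lipid carrier gene Apoe lay between 1091 and 2238 CPM, Sparc, a matrix gene, between 96.7 and 546.5, and Fgfr2, the receptor through which FGF4 acts, between 0.444 and 134.4. Among mesendoderm and streak genes, the Nodal co-receptor gene Tdgf1 lay between 507.9 and 642.0 CPM, the Nodal inhibitor gene Lefty1 between 13.5 and 462.0, and Cdx1 between 0.476 and 399.1. By the edgeR test, 0 of 23 endoderm and 0 of 14 mesendoderm genes were called, with or without the block, with median log2 fold changes of 0.12 and -0.21 without it. Of 14 pluripotency genes 0 were called without the block, and with it Klf4 (log2 fold change -1.26, SE 0.13, edgeR adjusted p = 0.042) and Klf5 (-1.24, SE 0.11, edgeR adjusted p = 0.021), which maintain naive pluripotency, were lower, where 0.0171% of all genes were called. With the plates of replicate 3 placed by the source values both calls were lost, at -0.78 for Klf4 and -0.84 for Klf5 (edgeR adjusted p = 0.99 for both).

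Genes whose CPM across cells was among the most like the summed CPM of the 10 were Cacna1c, Bhlhe40, Creg1, Fam189a1, AA467197, Galc, Lpar1, Ccpg1os and Entpd1. Their median Spearman correlation over the 6 sets of 84 to 371 cells was 0.15 to 0.18. They were picked as the highest of 11571 genes with a mean of at least 0.5 UMI per cell. They therefore lie above the 99th percentile of these genes (0.11) by construction. Single sets varied: Bhlhe40 was at 0.26 in the auxin set of replicate 1 and -0.06 in that of replicate 2. Entpd1 was at -0.11 in the control set of replicate 3. All cells of a set share libraries and the counts are sparse, so these weak values are a description.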

How the data were processed

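The authors aligned Smart-SCRB reads to mm10. Their deposited tables hold UMI counts for every gene and well as whole numbers, without normalization. The aligner, counter and annotation are not given in the sources used here. They also deposited detected genes per well, ERCC percent, and the saturation fraction of each plate, which ranged from 0.283 to 0.579 over 16 plates. Condition came from the deposited annotation of each plate, read as control or auxin from its labels (RAD21 positive and negative in replicate 1). The 10 genes and the gene lists were chosen with earlier results of these data known. All 10 matched by symbol, and positions came from GENCODE vM21 (GRCm38).

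Wells with over 2600 detected genes were taken as cells. Their sums by replicate and condition were tested with edgeR 4.0.16 (TMM, filterByExpr) in R 4.3.3, or DESeq2 1.42.0 as an alternative. The study calls its replicates biological but no source used here ties them to cultures, so p-values measure the spread between these samples, which may be technical. Sums of the same replicate deviated together (correlations 0.866, 0.824 and 0.666), so replicate numbers pair the samples, and the fit was repeated with a replicate block. Shares, thinning (expected values for 40000 and 20000 UMIs, shallower cells left out) and independent draws used Python 3.11.15, numpy 2.4.6, scipy 1.17.1 and pandas 2.3.3. The expected numbers and the edgeR fits were tested on simulated data. Named genes outside the 10 were the 3 of highest mean CPM in a list, list genes past the threshold, and the 10 most like the summed CPM, of which 1 is not reported here, except where stated. Promoter windows came from RefSeq (GRCm38.p6), which matched 5 of the 10 genes. Other wells were left out of tests.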

Additional observations from a re-analysis of the deposited data

Results flagged for a closer look

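Wells that did not pass the filter on detected genes were outside every comparison, and lineage transcripts were also seen there. Of 201 such wells, 19 held at least 1 of the 10 genes and 1 held 2 of them, with 34 UMIs of the 10 genes in all. Per replicate, 2 of 47, 13 of 107 and 4 of 47 wells were positive, at median UMI counts per well of 324, 625 and 5850. The summed level of the 10 genes was 75.6, 45.5 and 38.9 CPM in these wells of replicates 1, 2 and 3, from 7, 18 and 9 UMIs, against 39.4 to 40.2, 11.6 to 14.8 and 38.6 to 39.6 CPM in the cells kept. The source of these molecules was not tested.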

How the results depend on the processing

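The count of called lineage genes was 0 in all settings except the replicate block without the low count filter, which called 1 (Eomes); the range was 0 to 0 when any 1 replicate was left out. Combinations of the block with another choice, apart from DESeq2 with the block, were added after seeing the data, as was leaving out single plates. The block changed no other call for the 10 genes, while the count over all genes went from 0 to 3 with the block (1036 at an unadjusted p under 0.05), 56 with DESeq2 and the block, 156 with the block and no filter, 0 with the block and the plates of replicate 3 by the source values, and 14, 32 and 2 with the block and replicates 1, 2 and 3 left out in turn. The ratio of observed to expected cells with at least 3 genes was 0.903, with 1.41 at 2 UMIs, 1.21 without the UMI count, and 0.852 to 0.952 when a replicate was left out. The number of genes whose share kept 1 direction in all replicates was 4 (Gata6, Sox17, Eomes, Gsc), with 2 after thinning to 20000 UMIs (Gata6, Eomes), 2 at 2 UMIs (Eomes, Pdgfra), 4 at 40000 UMIs (Pdgfra in place of Sox17), 4 with the plates of replicate 3 as annotated (Dab2 in place of Gata6), 3 by the source values (Gsc lost), and 4 to 8 when a replicate was left out (8 without replicate 3). Single genes turned sign as follows. The log2 fold change of Mixl1 ran from -0.37 to 0.84 and that of Gsc from -0.26 to 0.64 without 1 replicate, with Mixl1 at -0.38 in the blocked fit without replicate 1. The share difference of Mixl1 ran from -0.377 to 1.38 points and that of Dab2 from -1.02 to 0.996 points without 1 replicate, and Dab2 was at -1.65 with the plates of replicate 3 as annotated. The share with at least 3 genes differed by 0.449 to 1.30 points without 1 replicate. The causes were not tested. Comparison of all genes between cells with at least 3 lineage genes and cells with none or 1, with its 7 alternatives, was not run because replicate 1 had 9 such cells. Genes at a few UMIs, Sox7 and Foxa2 above all, cannot show a difference at this depth.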

Other observations

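Transcripts of the state that resembles the 2-cell embryo, a rare condition of ES cells, were measured as a list apart from the lineage genes. The summed CPM of 7 such genes was 1.39 (control) and 29.6 (auxin) for replicate 1, 0.0204 and 0.0793 for replicate 2, and 0.165 and 5.08 for replicate 3. They sat in few cells: Gm8300 reached 3.55% of cells and Zscan4d and Zscan4c 2.37% at most in any set. Gm8300 had an edgeR log2 fold change of 3.89 (SE 0.72, adjusted p = 0.39) with the replicate block, and 2.63 (SE 0.84, edgeR adjusted p = 0.99) when the source values decided the plates of replicate 3.

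Genes of other cell types were low but not absent. Among 8 fibroblast genes the matrix gene Dcn lay between 0.111 and 22.6 CPM, Thy1 between 0.156 and 4.29 and Col1a1 between 0.184 and 3.13. Among trophoblast genes Ascl2 lay between 7.85 and 29.6, Tfap2c between 3.61 and 33.5 and Krt7 between 0.897 and 6.21 CPM. Of the unrelated tissue genes Krt10, Cd3e and Myh6 were highest, at up to 25.7, 9.73 and 2.93 CPM. By edgeR, 0 of 3 fibroblast, 0 of 4 trophoblast and 0 of 5 unrelated tissue genes were called, with or without the block.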
